A study of Rattus norvegicus with 30 samples.

Results

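The genes described here encode the proteins of the cytosolic ribosome in rat hepatocytes. They were chosen by symbol alone: probe sets that the array annotation gives to a single gene whose symbol begins with Rpl or Rps and a digit, or is Rplp0, Rplp1, Rplp2, Rpsa or Fau. The kinases named Rps6k and the genes named Rps19bp were left out. The rule found 57 probe sets of 50 genes, 34 of the large and 16 of the small ribosomal subunit, among 14217 genes named by a single symbol. Where a gene had several, the probe set that was brightest on average over the 30 arrays was used. Of the 50 genes, 46 passed a filter on dim probe sets and were tested among 10222 genes, 31 of the large and 15 of the small subunit. The filter asked for at least 5 arrays above their own median signal, and 43 of the 50 were above it on all 30. Rpl30 was above it on 20 arrays, the pseudogene Rpl37-ps2 on 6 and Rps13 on 5, so that these could have passed through the groups where they were brightest. For Rpl37-ps2 most of the 6 were arrays of 100 uM methapyrilene at 48 h, and none was a DMSO control. Rpl28, the muscle paralog Rpl3l, Rpl39l1 and the pseudogene Rps4x-ps1 did not pass, with mean signals of 109, 33.1, 253 and 86.6, and were not tested.

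Hepatocytes of male Sprague Dawley rats, bought frozen, were thawed, plated and overlaid with Matrigel, and dosed on the third day with methapyrilene, an antihistamine withdrawn from use after it caused liver tumours in rats, or with the DMSO vehicle alone. The 6 groups were DMSO, 3 uM methapyrilene and 100 uM methapyrilene, each harvested after 24 h or 48 h, with 5 arrays in a group. The labels give 1% DMSO for the vehicle, while the protocol gives that figure for the concentrated dosing solutions; which share the cells received is not settled. The replicates were separate wells and no animals are named, and the p-values below therefore speak of the variation from well to well. Of 6 hepatocyte markers, 5 were on the array, and their summed signal was 259861 to 417351 on every array. Replicates 1, 2 and 3 of 3 uM at 24 h stood apart from the other 27 arrays in the level of the members. They also did in the beta-actin 3' to 5' ratio, a measure of RNA quality, while replicate 1 did not in that of GAPDH. The main values for that group are also given without these 3 arrays. In bulk RNA of this kind, fewer cells of a type and less RNA per cell cannot be told apart.

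A cytosolic ribosome is built from ribosomal RNA and about equal amounts of each ribosomal protein, and hepatocytes, which secrete most plasma proteins, need many ribosomes. In vertebrates nearly all of these messengers begin with a 5' terminal oligopyrimidine tract (TOP), a C followed by a run of C and T, through which the mTORC1 pathway and the protein Larp1 control their translation and stability. When assembly of ribosomes fails, free Rpl5 and Rpl11 bind Mdm2, the ligase that marks p53 for breakdown. A few members have paralogs with their own regulation, among them Rps27l, a p53 target.

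The TOP tract lies at the start of the messenger, and the start sites are shown for the genes that the comparisons below turn on. RefSeq windows of 250 bases before to 50 after the annotated start (build GRCr8) matched 41 of the 50 genes. A start base C followed by 4 bases that are C or T was found in 11 of the 41 (26.8%), against 2.63% of all 27457 windows and 2.62% of the 11700 windows of genes on the array. The letters CTTTCC, searched on the sense strand only within 50 bases of the start on either side, occurred in 14 (34.1%), against 4.55% of all windows and 4.37% of those on the array. The letters and the pyrimidine run can overlap. The annotated start may lie some bases away from the one used in hepatocytes, and no match says only that these letters are absent from the window. Below are 60 bases before and 20 from the start of 8 genes, 5' to 3' on the sense strand, with the longest run of C and T (of 5 or more) in capitals.
Rpl14, chr8:129163560-129163639, plus strand: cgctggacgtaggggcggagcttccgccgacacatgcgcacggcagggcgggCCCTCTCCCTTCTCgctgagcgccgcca
Rpl23, chr10:83272165-83272244, minus strand: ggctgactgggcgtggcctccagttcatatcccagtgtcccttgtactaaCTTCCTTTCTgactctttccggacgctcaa
Rpl35a, chr11:81235002-81235081, minus strand: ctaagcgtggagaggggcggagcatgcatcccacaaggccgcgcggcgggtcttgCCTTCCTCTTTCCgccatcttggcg
Rpl18, chr1:105325210-105325289, plus strand: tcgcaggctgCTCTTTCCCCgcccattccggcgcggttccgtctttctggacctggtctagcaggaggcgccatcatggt
Rps28, chr7:15311314-15311393, minus strand: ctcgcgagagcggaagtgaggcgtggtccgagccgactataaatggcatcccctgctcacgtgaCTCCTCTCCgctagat
Rpl22, chr5:168117901-168117980, plus strand: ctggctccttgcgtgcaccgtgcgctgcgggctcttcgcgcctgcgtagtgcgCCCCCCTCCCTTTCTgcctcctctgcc
Rplp0, chr12:46718371-46718450, minus strand: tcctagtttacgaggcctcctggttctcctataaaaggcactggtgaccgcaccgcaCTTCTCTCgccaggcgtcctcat
Rps27l, chr8:76443598-76443677, plus strand: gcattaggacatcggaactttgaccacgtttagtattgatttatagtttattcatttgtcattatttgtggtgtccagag

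In Rpl14, Rpl22, Rpl35a and Rplp0 the run spans the annotated start. In Rpl23 it ends just before the start, and in Rps28 it begins a few bases after it. In Rpl18 it lies upstream, and the stretch of the paralog Rps27l holds no run of that length. Calls were found in both classes. Of the members with a C and 4 pyrimidines at the start, 2 of 10 tested were higher at 100 uM after 24 h and 3 of 10 after 48 h. Of those without, 5 of 28 were higher at each time. These counts lay near the background over all genes tested, which was 19.9% higher at 24 h and 18.9% at 48 h. The difference between the classes was not tested. The median log2 differences of the classes were 0.12 and 0.12 at 24 h and 0.086 and 0.080 at 48 h.

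The first question was what the high dose did within a day. After 24 h at 100 uM, 7 of the 46 tested members were higher than in DMSO at an adjusted p under 0.05 and 0 were lower. The 7 are 15.2% of the members, and the background over all genes tested was 19.9% higher and 15.8% lower. With this scaling the share of higher members was near the background, while 0 of 46 fell; under quantile normalization 20 of 46 were higher, where 20.9% of all genes were. The differences were small: the median over the members was 0.11 on the log2 scale against 0.043 over all genes. Above zero lay 42 members and below it 4, where 55.8% of all genes were above. Median deviations of the members were 0.18 and 0.24 in replicates 1 and 2 of 100 uM, and 0.099, 0.031 and 0.034 in replicates 3, 4 and 5. The DMSO arrays of 24 h ran from -0.11 to 0.13. Members varied together within groups, so the sign count is not one of independent genes. The 7 were Rpl14, Rpl7l1, Rpl23, Rpl18, Rpl35a, Rps28 and Rpl4, of which Rps28 alone belongs to the small subunit. That is 6 of 31 large and 1 of 15 small subunit genes, with medians of 0.11 and 0.099. The uncalled members ran from -0.59 (Rpl39) to 0.36 (Rpl37-ps2).

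Rpl14, a large subunit protein, had signals of 34876.5, 38215, 39367, 36148 and 41153.5 in DMSO and 45444, 48116, 48356, 42402 and 45853 at 100 uM after 24 h. All 5 treated arrays exceeded all 5 controls. The difference was 0.28 ± 0.066 (log2, SE, n = 5 in each group), or 1.21-fold, with an adjusted p of 0.00102. A dimmer probe set of Rpl14 (mean signal 528) differed by 0.10 ± 0.17 at 24 h and 0.21 ± 0.17 at 48 h. Neither passed limma's test over all single-symbol probe sets (adjusted p = 0.715 and 0.391). With the mean of its probe sets the 24 h call of Rpl14 was lost (adjusted p = 0.0765). Rpl7l1, a paralog of Rpl7, had signals of 6089.8, 5375, 5941, 6153 and 6154 in DMSO and 7215, 6568, 7087, 6749.9 and 6733 at 100 uM. Its groups did not overlap either, and the difference was 0.21 ± 0.055 (adjusted p = 0.00249). Rpl18 gave 49996, 51565, 52206, 48880.5 and 54232 in DMSO and 61368, 61578.5, 60428, 57855 and 57924 at 100 uM. Here too every treated array was above every control, with a difference of 0.22 ± 0.070 (adjusted p = 0.0131). These 3 were the members whose groups did not overlap at 24 h, where 14.4% of all genes had every treated array above every control and 11.9% every one below.

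The other 4 overlapped with DMSO on at least 1 array. Rpl23, which like Rpl5 and Rpl11 can bind Mdm2, had signals of 49345, 52222, 60724, 50872 and 54799.7 in DMSO and 69871, 71238, 64109.9, 58051.5 and 56595 at 100 uM. Replicates 1 and 2 were the highest of the treated arrays, and replicates 4 and 5 lay below the highest control. The difference was 0.25 ± 0.078 (adjusted p = 0.0105). Rpl35a, whose human counterpart is mutated in Diamond-Blackfan anaemia, gave 44857, 44929, 51651, 42676 and 50118 in DMSO and 56699, 60338, 54063, 51032 and 51005 at 100 uM, a difference of 0.22 ± 0.078 (adjusted p = 0.0242). Rps28 (difference 0.18 ± 0.069, adjusted p = 0.0445) and Rpl4, which lines the exit tunnel of the nascent chain (0.18 ± 0.072, adjusted p = 0.0447), were close to the threshold. Leaving out 1 array at a time gave 4 to 9 higher members, with 4 without replicate 1, 2 or 4 of DMSO or replicate 1 or 2 of 100 uM. Centring each array on its median left 1, Rpl14, where 14.2% of all genes were higher, and moved the median to 0.081.

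**Figure D1:**
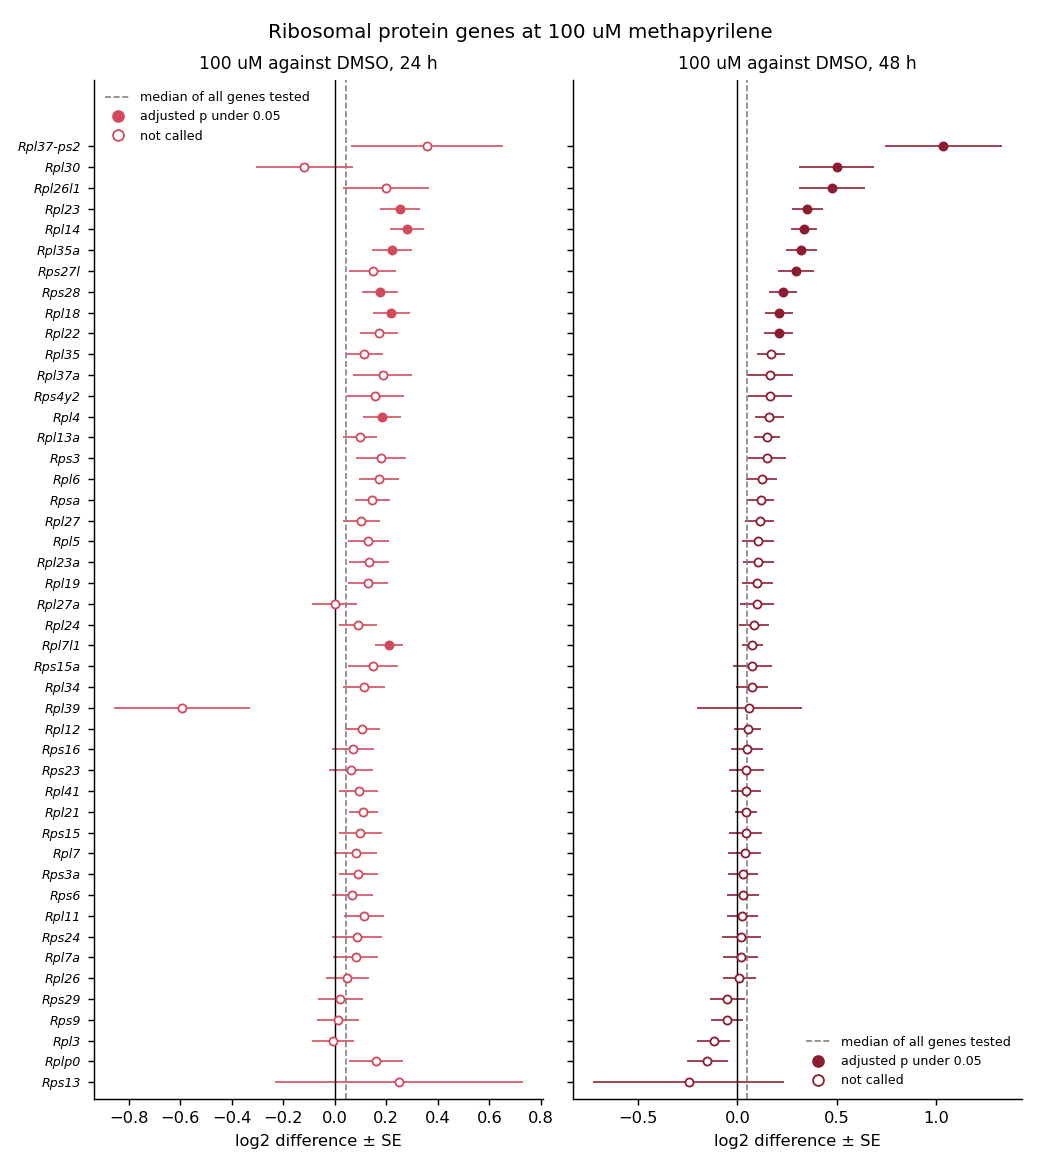
Log2 difference from DMSO (x axis, with SE) of each tested ribosomal protein gene (y axis, ordered by the 48 h value) at 100 uM methapyrilene after 24 h (left) and 48 h (right). Filled points passed an adjusted p of 0.05, 7 on the left and 10 on the right, all of them to the right of zero, and the dashed line is the median of all genes tested.

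After 48 h at 100 uM, 10 of the 46 members (21.7%) were higher than DMSO and 0 lower, with a background of 18.9% higher and 14.5% lower. With this scaling the share of higher members was again near the background, but under quantile normalization 34 of 46 were higher, where 19.8% of all genes were. The median of the members was 0.091 and that of all genes 0.049. Above zero were 41 members and below it 5, where 56.8% of all genes were above. In 14 members every treated array was above every control, against 15.8% of all genes; for the opposite direction the counts were 0 of 46 and 12.1%. The members that were higher were Rpl14, Rpl23, Rpl35a, Rpl37-ps2, Rps28, Rps27l, Rpl18, Rpl26l1, Rpl22 and Rpl30. Among them Rpl37-ps2 had passed the filter mainly through these treated arrays, and its call is no support. Of the 7 called at 24 h, 5 were called again at 48 h, against separate control wells: Rpl14, Rpl23, Rpl35a, Rpl18 and Rps28. They are 71.4% of the 24 h list and 50% of the 48 h list. Above zero at both times were 38 of the 46 members. Rpl3 alone was below zero at both, and neither of its values passed the test. By subunit, 8 of 31 large and 2 of 15 small subunit genes were higher at 48 h, with medians of 0.11 and 0.046; the difference between the subunits was not tested. The uncalled members ran from -0.24 (Rps13) to 0.17 (Rpl35).

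Rpl14 had signals of 36892, 36977, 35127, 35386 and 35970.3 in DMSO and 45416, 47241.5, 44545, 44391.5 and 46086 at 100 uM after 48 h. The controls were within a narrow band and all treated arrays lay above it. The difference was 0.34 ± 0.066, or 1.26-fold, with an adjusted p of 1.27e-04. Rpl23 gave 50337.5, 48589.5, 45328.5, 44152 and 48802 in DMSO and 61513.5, 61960.4, 62517, 59327 and 57372 at 100 uM. The groups that overlapped at 24 h were now apart, with a difference of 0.35 ± 0.078 or 1.28-fold (adjusted p = 5.34e-04). Rpl35a gave 45414.5, 43992.5, 40755, 41308 and 45873.5 in DMSO and 54560.1, 57101, 53165, 53359 and 53194 at 100 uM, again apart, with a difference of 0.32 ± 0.078 (adjusted p = 0.00139). The 48 h calls of Rpl14, Rpl23 and Rpl35a held in all 43 alternatives of the fit. Rps28 (0.23 ± 0.069, adjusted p = 0.00974), Rpl18 (0.21 ± 0.070, adjusted p = 0.0191) and Rpl22, an RNA-binding protein needed in T cell development (0.21 ± 0.074, adjusted p = 0.0281), were also higher on every treated array than on any control.

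Rps27l, the p53-regulated paralog of Rps27, had signals of 9835, 8475, 10033, 9575 and 10391 in DMSO and 11278, 12925, 11244, 12123 and 11671.5 at 100 uM after 48 h. The lowest treated array was above the highest control, and the difference was 0.30 ± 0.091 or 1.23-fold (adjusted p = 0.0106). At 24 h its signals were 8036, 10293, 11288, 8858 and 11007 in DMSO and 9357, 11752, 11724, 10562 and 11133 at 100 uM. Those groups overlapped, with a difference of 0.15 ± 0.091 (adjusted p = 0.223). Rpl26l1, the paralog of Rpl26, gave 564, 593, 444, 665 and 556 in DMSO and 639, 842, 717, 842 and 881 at 100 uM after 48 h, a difference of 0.48 ± 0.17 (adjusted p = 0.0257) with overlap on the lowest treated array. Rpl26 itself had a difference of 0.0087 ± 0.083 (adjusted p = 0.953).

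**Figure D2:**
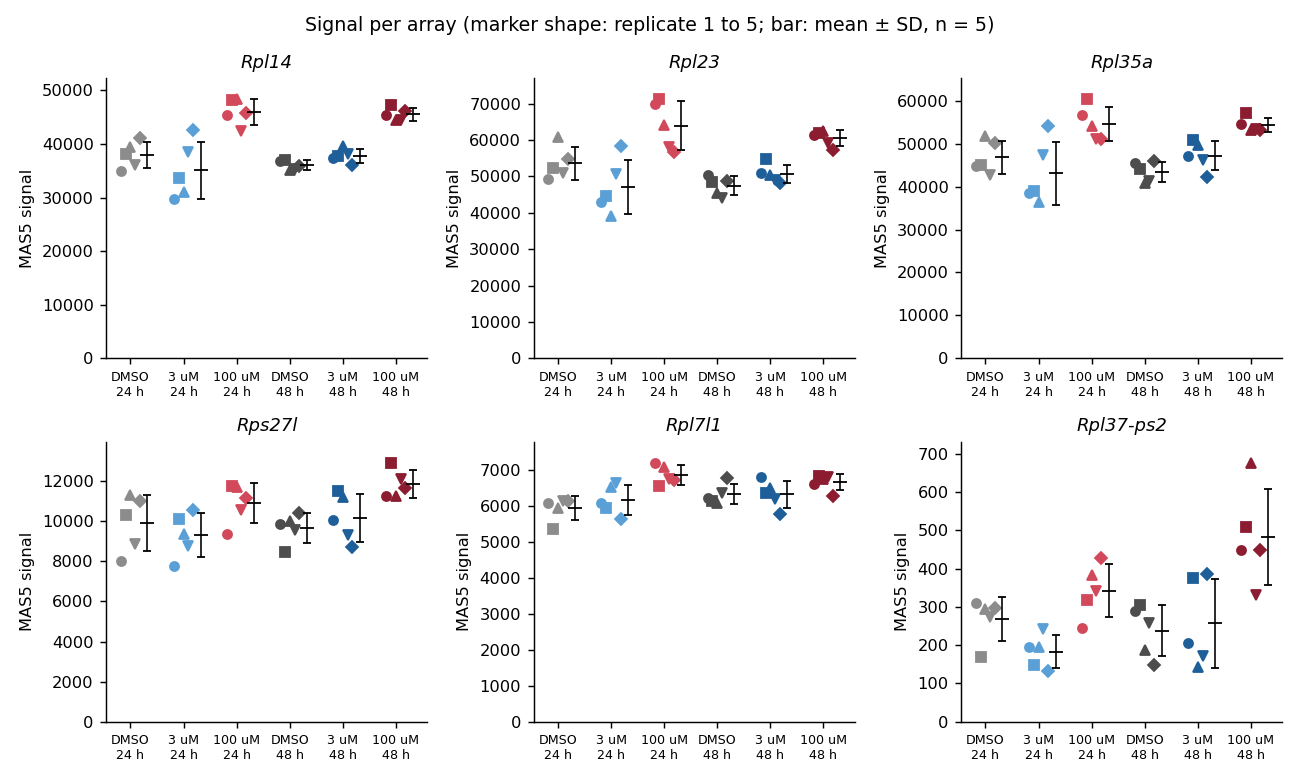
MAS5 signal (y axis, linear and from 0) on each array in the 6 groups (x axis) for 6 ribosomal protein genes, with the mean and SD of the 5 arrays beside the points. Rpl14 is above its controls on all arrays of 100 uM at both times, and replicates 1, 2 and 3 of 3 uM at 24 h are the lowest arrays of that group for Rpl14, Rpl23 and Rpl35a.

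The largest differences at 48 h came from 2 dim probe sets. The pseudogene Rpl37-ps2 had signals of 289.9, 304, 187, 258 and 149 in DMSO and 449.8, 509, 678, 331.5 and 448 at 100 uM. The groups were apart and the difference was 1.04 ± 0.30, or 2.05-fold (adjusted p = 0.00613). The gene was, however, above the array median on 6 arrays only, none of them DMSO and most of them 100 uM at 48 h. It thus entered the test through the group where it was high, and its call is no support. A probe set of a pseudogene can also bind the messenger of the parent gene, and its value is uncertain for that reason. At 24 h the difference was 0.36 ± 0.30 (adjusted p = 0.382). Rpl30 gave 341, 512, 350.5, 421 and 474 in DMSO and 509, 756, 684, 463 and 569 at 100 uM after 48 h, with 2 treated arrays inside the range of the controls and a difference of 0.50 ± 0.19 (adjusted p = 0.0393). At 24 h the difference was -0.12 ± 0.19 (adjusted p = 0.682). The mean signal of the Rpl30 probe set was 436, where 38 members exceeded 30000, and what this probe set detects was not tested. Centring each array on its median left 4 called members at 48 h, where 12.2% of all genes were higher. Quantile normalization gave 1 lower member beside the 34 higher ones, where 1589 of all 10222 genes were lower.

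Rpl5, Rpl11, Rps6 and Rpl13a, which have roles beyond the ribosome, did not pass the test at 100 uM at either time. Rpl5 differed from DMSO by 0.13 ± 0.081 at 24 h (adjusted p = 0.225) and 0.11 ± 0.081 at 48 h (adjusted p = 0.342). Rpl11, its partner on the Mdm2 pathway, differed by 0.11 ± 0.078 (adjusted p = 0.287) and 0.025 ± 0.078 (adjusted p = 0.844). Signals of Rpl11 in DMSO ran from 56286 to 62216.5 at 24 h and 54138 to 65691 at 48 h, and those at 100 uM from 59172.5 to 69335.5 and 56899.5 to 62009. Rps6, the substrate of S6 kinase, differed by 0.068 ± 0.081 (adjusted p = 0.563) and 0.029 ± 0.081 (adjusted p = 0.824). Rpl13a, which also acts as a translational repressor in inflammation, differed by 0.098 ± 0.066 (adjusted p = 0.267) and 0.15 ± 0.066 (adjusted p = 0.0829), and at 48 h all 5 treated arrays (55357 to 58346) exceeded the controls (47002 to 54256).

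Rplp0, the base of the ribosomal stalk and a common reference gene in PCR, had signals of 58893, 50502, 63365, 53694 and 61694.5 in DMSO and 65466, 70706, 62443, 61917 and 60812.5 at 100 uM after 24 h. After 48 h they were 62604, 63283, 58867, 48082 and 64400.2 in DMSO and 61382, 56515, 49926.5, 52896.5 and 46571 at 100 uM. The groups overlapped at both times, and the differences had opposite signs, 0.16 ± 0.10 (adjusted p = 0.251) and -0.15 ± 0.10 (adjusted p = 0.286). Rpsa, the laminin receptor precursor of the small subunit, has 3 probe sets. The brightest had differences of 0.15 ± 0.068 (adjusted p = 0.0942) and 0.12 ± 0.068 (adjusted p = 0.196). The other 2, of types that can bind related transcripts, had 0.19 and 0.16 at 24 h (adjusted p = 0.00742 and 0.0369 over all single-symbol probe sets) and 0.27 and 0.22 at 48 h (adjusted p = 3.07e-04 and 0.00500). The probe sets of this gene thus agree in sign and not in their call.

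Rpl7l1, higher at 24 h, differed by 0.076 ± 0.055 at 48 h (adjusted p = 0.313), and its dimmer probe set by 0.055 and -0.080. Its partner Rpl7 differed by 0.081 ± 0.082 (adjusted p = 0.490) and 0.037 ± 0.082 (adjusted p = 0.776). Rps4y2, a form of Rps4, differed by 0.16 ± 0.11 (adjusted p = 0.295) and 0.16 ± 0.11 (adjusted p = 0.283). Differences between paralogs were not tested. Rpl3, which lies near the peptidyl transferase centre, differed by -0.0064 ± 0.083 (adjusted p = 0.965) and -0.12 ± 0.083 (adjusted p = 0.295). Its dimmer probe set, of a type that can bind related transcripts, differed by -0.19 ± 0.23 at 24 h and 0.38 ± 0.23 at 48 h. Neither passed limma's test over all single-symbol probe sets (adjusted p = 0.595 and 0.231). Rpl39, a small protein of the exit tunnel, had signals of 2388, 1699, 2306, 2234 and 1541 in DMSO and 906, 780.4, 1583, 2104 and 1749 at 100 uM after 24 h. Replicates 1 and 2 of the treated arrays were the lowest and the difference of -0.59 ± 0.26 did not pass (adjusted p = 0.0791), while the difference at 48 h was 0.060 ± 0.26 (adjusted p = 0.891). Fau, Rplp1, Rplp2, Rps27, Rps27a, Rpl10 and Rpl22l1 had no probe set with a single symbol and were not analysed here by name.

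A further 37 probe sets carry several symbols of which at least 1 is a ribosomal protein symbol, as happens in a family with many near-identical pseudogenes. They were tested apart, among 4025 probe sets without a single symbol. At 100 uM, 2 of the 37 were higher and 0 lower after 24 h, and 4 were higher and 1 lower after 48 h. Over the 4025 the shares were 7.68% higher and 13.3% lower at 24 h, and 7.45% and 12% at 48 h. The median differences of the 37, 0.094 and 0.067, were close to those of the members.

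At 3 uM none of the members passed limma's test with Benjamini-Hochberg adjustment at either time. After 24 h, 0 of 46 were higher and 0 lower, with a background of 2.99% higher and 1.22% lower. At an unadjusted p under 0.05 the counts were 0 higher and 9 lower. The share of all genes at that threshold was not counted, here and in the comparisons below. The median was -0.12 against 0.014 over all genes, with 2 members above zero and 44 below, where 52.9% of all genes were above. The 3 smallest p-values belonged to Rpl30 (-0.52 ± 0.19, adjusted p = 0.104), Rps16 (-0.21 ± 0.081, adjusted p = 0.121) and Rpl23 (-0.20 ± 0.078, adjusted p = 0.132). A set of 12 genes is given in every comparison whatever their values. The differences of Rpl5, Rpl11, Rps6, Rpl13a, Rplp0 and Rpsa were -0.090, -0.10, -0.11, -0.15, -0.055 and -0.12. For the other 6, Rps27l, Rpl22, Rpl3, Rpl7l1, Rpl7 and Rpl39, they were -0.084, -0.11, -0.11, 0.054, -0.16 and -0.30.

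The 5 arrays of this group did not vary around a common value. Rps16, a small subunit protein, had signals of 43145, 37821, 40316.5, 53731 and 58152 at 3 uM and 52349, 50279, 55893, 49898 and 58067 in DMSO after 24 h. Replicates 1, 2 and 3 lay below every control, and replicates 4 and 5 lay within the controls or above them. Rpl23 repeated this, with 42932, 44646, 39085, 50579 and 58256 at 3 uM. Over the 46 members the median deviation from DMSO was -0.24, -0.30 and -0.28 in replicates 1, 2 and 3, and 0.024 and 0.20 in replicates 4 and 5. The same 3 arrays had beta-actin 3' to 5' control ratios, a measure that goes up with degraded or truncated RNA, of 3.93, 5.10 and 5.30. The other 27 arrays had ratios from 2.34 to 3.43 and median deviations of the members from -0.11 to 0.24. The same ratio for GAPDH was 1.15, 1.21 and 1.24 in replicates 1, 2 and 3 and 1.02 to 1.17 on the other 27 arrays. By GAPDH replicate 1 thus lay inside the range of the others. With replicates 4 and 5 alone the median at 3 uM was 0.12 in place of -0.12, with 40 members above zero and 0 called. Of all genes 0% were higher and 0.0391% lower in that fit, and the share above zero was not counted. Replicates 1, 2 and 3 had been set apart by the members' own level among other measures. Leaving them out had to raise the median, so its change of sign is no support. With the log2 beta-actin ratio as a covariate the median was 0.0054. The part of RNA quality in the member values was not tested beyond this. With weights that count arrays apart from their group less, 37 members were lower. Without replicate 4 the count was 2, and without replicate 5 it was 20. Shares over all genes were not counted in the fits with the covariate, with weights or without replicate 4 or 5.

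**Figure D3:**
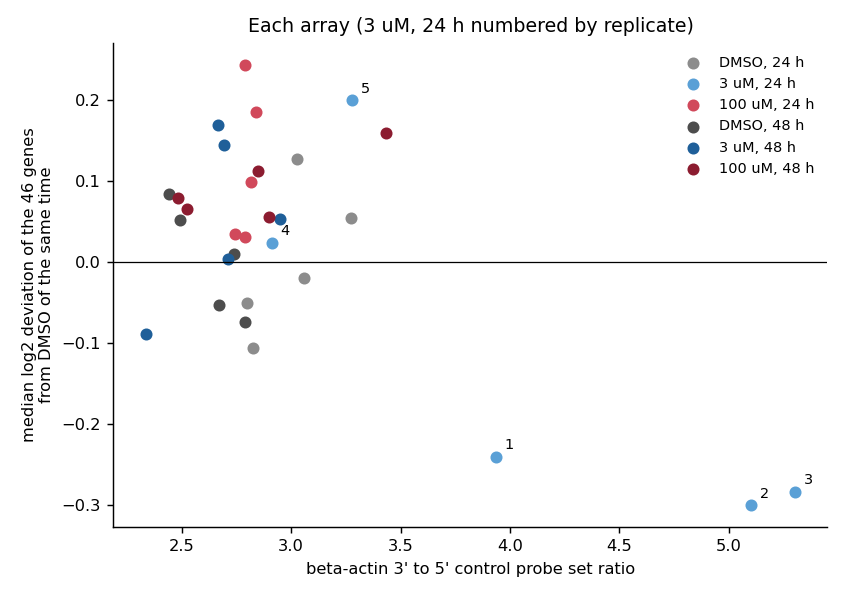
Median log2 deviation of the 46 tested members from the mean of DMSO at the same time (y axis) against the beta-actin 3' to 5' control ratio (x axis), 1 point for each of the 30 arrays, coloured by group, with the arrays of 3 uM at 24 h numbered by replicate. Replicates 1, 2 and 3 lie at the lower right, at deviations of -0.24, -0.30 and -0.28, and replicates 4 and 5 lie among the other arrays.

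After 48 h at 3 uM, 0 of 46 members were higher and 0 lower, with a background of 0.0196% each way, and 0 had an unadjusted p under 0.05. The median was 0.056 against 0.0047 over all genes, and 42 members and 51.9% of all genes were above zero. Rpl22 came nearest, with signals of 37129.5, 35990.4, 34791, 35568 and 36304 in DMSO and 37659, 40517, 41720.5, 38399 and 38419 at 3 uM. Its arrays did not overlap with DMSO, yet the difference of 0.13 ± 0.074 had an adjusted p of 0.979. Rpl35a (0.12 ± 0.078, adjusted p = 0.980) and Rpl23 (0.096 ± 0.078, adjusted p = 0.997) followed. Differences of Rps27l, Rpl5, Rpl11, Rps6, Rpl13a, Rplp0 and Rpsa at this dose and time were 0.066, 0.063, 0.011, 0.015, 0.020, 0.068 and 0.036. For Rpl3, Rpl7l1, Rpl7 and Rpl39 they were 0.039, -5.2e-04, 0.038 and 0.031.

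Setting 100 uM against 3 uM gave different pictures at the 2 times. After 24 h, 32 of 46 members (69.6%) were higher at 100 uM and 0 lower, with a background of 19.8% higher and 19.1% lower. Signals of Rpl14 at 3 uM were 29818, 33716, 30994, 38471 and 42513, and replicate 5 alone reached the arrays of 100 uM given above. This comparison rests on the 3 uM arrays of 24 h. With replicates 4 and 5 of 3 uM alone 2 members were higher and the median went from 0.24 to -0.014, while 14.6% of all genes were still higher. The 3 arrays left out had been set apart partly by the members' own level, so the median had to fall. The 5 members with the smallest adjusted p were Rpl14 (0.40 ± 0.066, adjusted p = 8.09e-06), Rpl23 (0.45 ± 0.078, adjusted p = 1.92e-05), Rpl35a (0.36 ± 0.078, adjusted p = 3.99e-04), Rpl18 (0.31 ± 0.070, adjusted p = 4.89e-04) and Rpl21 (0.25 ± 0.057, adjusted p = 5.88e-04). Rpl14 and Rpl23 were still called without the 3 arrays, and Rpl35a, Rpl18 and Rpl21 were not. Single arrays moved the count between 18 and 41; it changed by over 1.5 times without replicate 1, 2 or 3 of 3 uM or replicate 1 or 2 of 100 uM. The 12 genes given in every comparison ran from -0.29 (Rpl39) to 0.28 (Rpl22), with the smallest adjusted p at 0.00184 (Rpsa), and of these Rps6, Rplp0, Rpl3 and Rpl39 were not called.

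After 48 h, 5 members were higher at 100 uM than at 3 uM and 0 lower, with a background of 16.2% higher and 12.6% lower. They were Rpl14 (0.27 ± 0.066, adjusted p = 0.00194), Rpl37-ps2 (0.99 ± 0.30, adjusted p = 0.0102), Rpl23 (0.26 ± 0.078, adjusted p = 0.0120), Rpl30 (0.55 ± 0.19, adjusted p = 0.0271) and Rpl35a (0.20 ± 0.078, adjusted p = 0.0468). Of these, Rpl37-ps2 had passed the filter mainly through the arrays of 100 uM at 48 h, and its call is no support. With the mean of its probe sets Rpl14 was not called in limma (adjusted p = 0.217). Signals of Rpl14 at 3 uM were 37414, 37735, 39639.5, 38073 and 36097, all below the arrays of 100 uM given above. The median over the members was 0.043, about that of all genes at 0.041. Above zero were 34 members and below it 12, where 56.3% of all genes were above. The count was 3 to 7 when 1 array was left out, with changes over 1.5 times without replicate 2 or 3 of 100 uM or replicate 5 of 3 uM. The 12 genes given in every comparison ran from -0.22 (Rplp0) to 0.23 (Rps27l), with the smallest adjusted p at 0.0555 (Rps27l), and 0 of them were called.

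With time in culture none of the members passed limma's test. In DMSO, 0 of 46 were higher and 0 lower at 48 h than at 24 h, with a background of 2.56% higher and 1.92% lower; at an unadjusted p under 0.05, 0 were higher and 1 was lower. The median was -0.055 against 0.0016 over all genes, with 42 members below zero, where 50.5% of all genes were above it. Rpl23 had the smallest p, with a difference of -0.17 ± 0.078 (adjusted p = 0.258). The 12 genes given in every comparison ran from -0.24 (Rpl39) to 0.092 (Rpl7l1), with the smallest adjusted p at 0.454 (Rpl7l1). The change of the 3 uM effect from 24 to 48 h gave 0 higher and 0 lower members, and 0% of all genes each way; 6 members had an unadjusted p under 0.05, all higher. The smallest p-values were those of Rpl23 (0.29 ± 0.11, adjusted p = 0.314), Rpl35a (0.25 ± 0.11, adjusted p = 0.359) and Rpl22 (0.24 ± 0.10, adjusted p = 0.359). Those 12 ran from -0.054 (Rpl7l1) to 0.33 (Rpl39), with the smallest adjusted p at 0.359 (Rpl22). With replicates 4 and 5 of 3 uM at 24 h alone the median of this change went from 0.17 to -0.066. Leaving out the arrays where the members were lowest had to lower it.

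The change of the 100 uM effect from 24 to 48 h also gave 0 higher and 0 lower members, with a background of 0.616% higher and 1.05% lower. At an unadjusted p under 0.05, 1 was higher and 1 lower. They were Rpl30 (0.62 ± 0.27, adjusted p = 0.356) and Rplp0 (-0.31 ± 0.15, adjusted p = 0.416), followed by Rpl39 (0.65 ± 0.37, adjusted p = 0.532). A gene called at 100 uM at a single time, such as Rpl7l1 or Rps27l, was therefore not shown to differ between the times. For Rps27l the change was 0.15 ± 0.13 (adjusted p = 0.736) and for Rpl7l1 -0.13 ± 0.077 (adjusted p = 0.534). Among the 12 genes given in every comparison it ran from -0.31 (Rplp0) to 0.65 (Rpl39), with the smallest adjusted p at 0.416 (Rplp0).

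Within groups the bright members varied together. Of the 46, 38 had a mean signal over 30000, a level that 289 of the 10222 genes reached; this class was formed after the levels were seen. Their within-group SD on the log2 scale was 0.084 to 0.20 with a median of 0.13, against 0.18 over all genes. The deviations of 2 such genes from their group means correlated over the 30 arrays with a median r of 0.88 over 703 pairs, from 0.41 to 0.98, where the median over all gene pairs was 0.0013. Without replicates 1, 2 and 3 of 3 uM at 24 h the median was 0.79 over 27 arrays. These genes share the arrays, the scaling and probe sets near the bright end of the scale, so the correlations are a description. Whether the brightest probe sets were near saturation was not tested. Effects of 100 uM on the 38 ran from -0.0064 to 0.28 at 24 h, with an SD over genes of 0.066 beside a median SE of 0.078. At 48 h they ran from -0.15 to 0.35, with an SD of 0.11. The summed signal of the members was 3.61 to 3.74% of that of all genes tested in replicates 1, 2 and 3 of 3 uM at 24 h and 3.92 to 4.88% in the other 27 arrays.

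**Figure D4:**
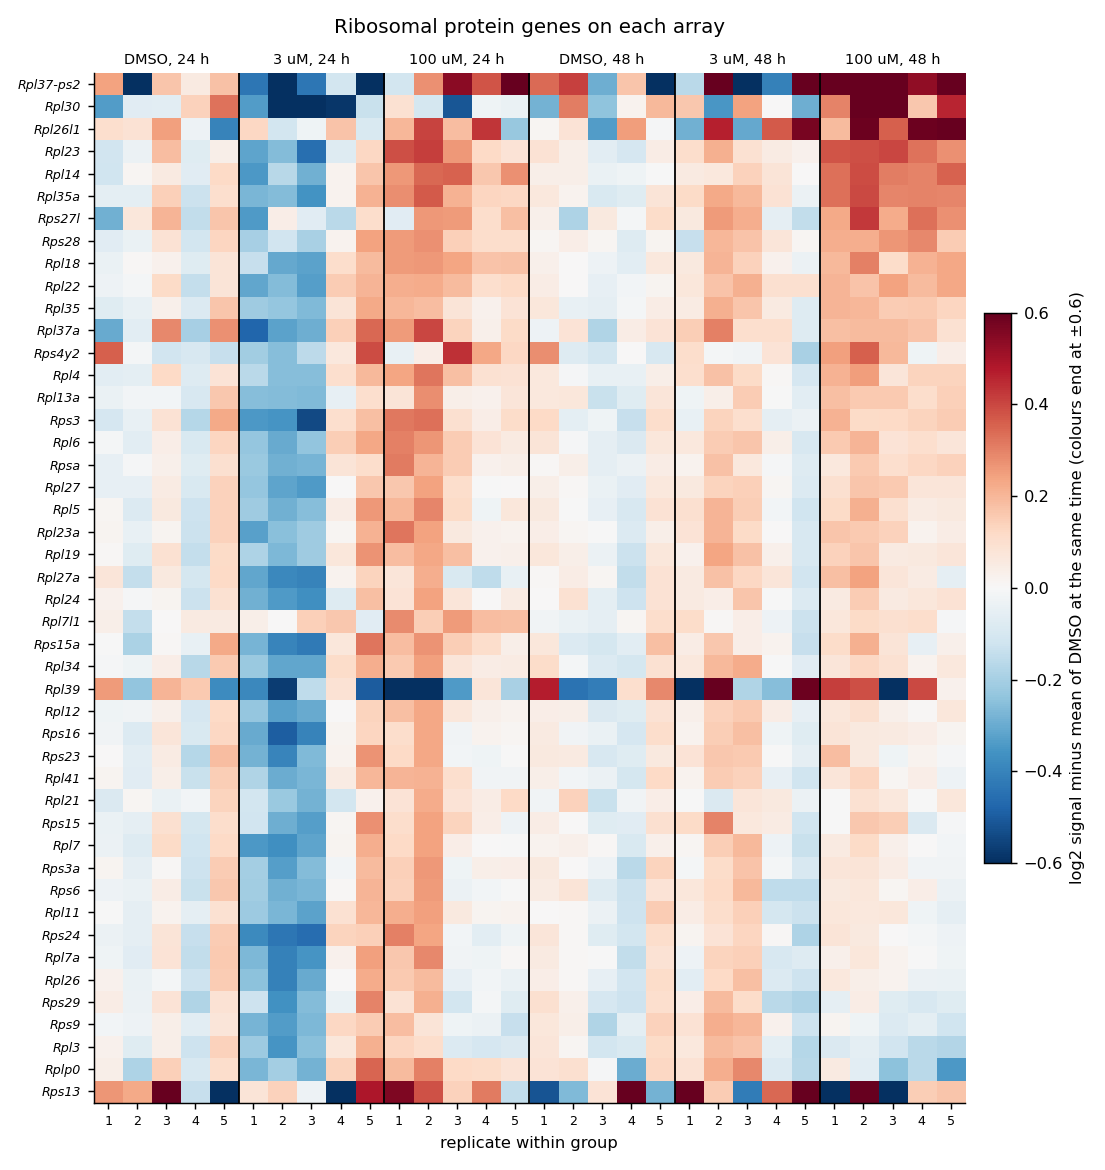
Log2 signal minus the mean of DMSO at the same time (colour, cut at ±0.6) for the 46 tested members (rows, ordered by their difference at 100 uM and 48 h) on each of the 30 arrays (columns, in 6 groups of 5 replicates). Nearly whole columns change colour together: replicates 1, 2 and 3 of 3 uM at 24 h are low for most genes, with median deviations of -0.24, -0.30 and -0.28, and the 3 highest columns are replicates 1 and 2 of 100 uM at 24 h, at 0.18 and 0.24, and replicate 5 of 3 uM at 24 h, at 0.20.

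Other genes of ribosome supply were counted in the same fit. Of 15 tested translation genes whose messengers also carry a TOP tract, 10 were higher at 100 uM after 24 h and 0 lower, and 10 and 0 after 48 h, with medians of 0.21 and 0.25. Among them were Eef1d, a subunit of the elongation factor exchange complex (0.39 ± 0.064 at 24 h), Nap1l1, a histone chaperone (0.22 ± 0.051), and Eef1b2 (0.31 ± 0.073). At 48 h the smallest p-values were those of Eif3f (0.37 ± 0.046), Hnrnpa1 (0.44 ± 0.056) and the helicase cofactor Eif4b (0.57 ± 0.079). Of 24 chaperones of ribosomal proteins and subunit assembly or export factors, 16 were higher and 0 lower at 24 h, and 17 and 1 at 48 h, with a median of 0.33 at each time. Gnl3, or nucleostemin (0.61 ± 0.070), the stalk assembly factor Mrto4 (0.58 ± 0.068), and Pno1 (0.46 ± 0.062) had the smallest p-values at 24 h. At 48 h Mrto4 (0.63 ± 0.068), the exportin Xpo1 (0.60 ± 0.087) and Rpf2 (0.65 ± 0.10) had the smallest, and Efl1, a GTPase of late subunit maturation, was lower (-0.30 ± 0.097).

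Of 19 RNA polymerase I and nucleolar genes, 12 were higher and 0 lower at 24 h, with a median of 0.38, and 9 were higher and 1 lower at 48 h, with a median of 0.25. The small nucleolar RNP proteins Nop56 (0.58 ± 0.055) and Nop58 (0.43 ± 0.050) and nucleolin, Ncl (0.42 ± 0.050), had the smallest p-values of this list at 24 h. At 48 h Wdr12 (0.62 ± 0.080), Nop56 (0.42 ± 0.055) and Utp4 (0.53 ± 0.086) had the smallest, and Ubtf, which binds ribosomal DNA, was lower (-0.35 ± 0.11). Beside the backgrounds of 19.9% and 18.9%, the shares higher in these 3 lists were, with this scaling, above those of the ribosomal proteins themselves. Under quantile normalization a larger share of the ribosomal proteins was higher, as given above, and the lists were not counted under it. The differences between lists were not tested. The lists were made with earlier results of these data known, and their counts describe them only.

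**Figure D5:**
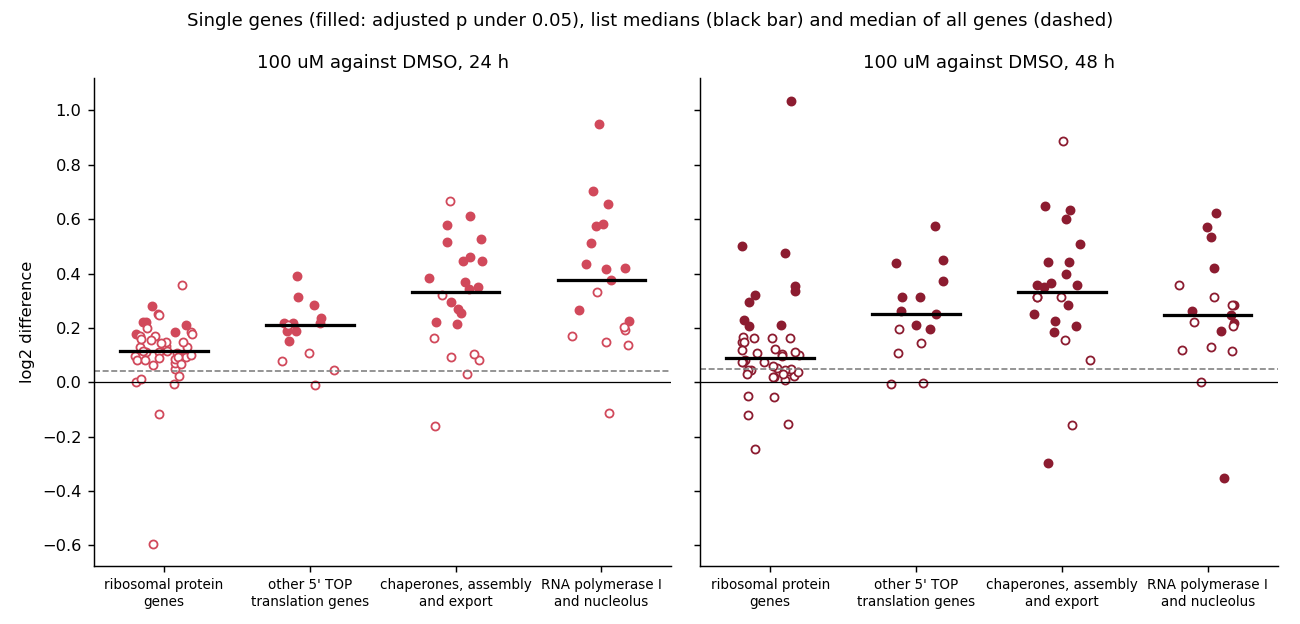
Log2 difference at 100 uM from DMSO (y axis) for the 46 ribosomal protein genes and 3 lists of related genes (x axis), after 24 h (left) and 48 h (right), 1 point a gene, filled where the adjusted p was under 0.05. The black bars are list medians, 0.11 for the ribosomal proteins and 0.21, 0.33 and 0.38 for the lists at 24 h, and 0.091, 0.25, 0.33 and 0.25 at 48 h, with the median of all genes dashed.

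Of 15 regulators of TOP messengers and ribosome supply, 4 were higher and 1 lower at 24 h, and 3 and 1 at 48 h. The background was 19.9% higher and 15.8% lower at 24 h, and 18.9% and 14.5% at 48 h, and the shares higher in this list and in that of quality control below lay near it. The mTORC1 activator Rheb was higher at both times (0.32 ± 0.059 and 0.19 ± 0.059), as was Akt1s1 (0.29 ± 0.10 and 0.27 ± 0.10), an mTORC1 inhibitor. Eif4ebp1, the translational repressor that mTORC1 inactivates, was higher at 24 h (0.42 ± 0.076), and Tsc1, which restrains Rheb, at 48 h (0.28 ± 0.11). Sesn1, a p53 target that inhibits mTORC1, was lower at both times (-0.53 ± 0.10 and -0.52 ± 0.10). Its relative Sesn2, named after its values were seen, was higher at 24 h (0.44 ± 0.16) and not called at 48 h (0.31 ± 0.16). Among 3 tested genes of ribosomal stress and p53, Mdm2 was higher at both times (1.28 ± 0.060 and 1.33 ± 0.060) and 0 were lower. Cdkn1a (0.22 ± 0.091 and 0.20 ± 0.091) and Mdm4 (-0.063 ± 0.16 and -0.053 ± 0.16) were not called at either time. Of 8 ribosome quality control genes, 2 were higher and 2 lower at 24 h, and 2 and 0 at 48 h. Pelo, which rescues stalled ribosomes, was higher at both times (1.23 ± 0.083 and 0.96 ± 0.083), with Hbs1l at 24 h (0.25 ± 0.052) and Nemf at 48 h (0.28 ± 0.086). Ltn1 (-0.31 ± 0.11) and Tcf25 (-0.17 ± 0.064) were lower at 24 h.

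Markers of liver cell types were read beside the members. Of 5 hepatocyte markers 0 passed the test at 100 uM at either time. Of 3 macrophage markers past the filter Cd68 alone was higher (0.86 ± 0.12 and 1.65 ± 0.12); the summed signal of the 5 measured was 1771 to 2441 in DMSO and 2417 to 2999 at 100 uM at 24 h, and 1482 to 2140.4 and 2585 to 3548 at 48 h. Of 4 leukocyte markers 1, Lyz2, passed the filter and was lower (-0.29 ± 0.080 and -0.21 ± 0.080). Of 4 stellate cell markers 1, Des, was higher at 48 h (0.58 ± 0.21). The 1 endothelial marker past the filter did not pass the test. Of 2 bile duct markers Epcam was higher at 24 h (0.15 ± 0.057) and lower at 48 h (-0.15 ± 0.057), and Krt19 was lower at 48 h (-1.49 ± 0.44). The part of these markers in the member values was not tested.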

How the data were processed

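RNA of 30 hepatocyte cultures was measured on rat expression arrays. The deposited values are intensity, probe set signals on a linear scale that the authors made with MAS5, per the submitters' processing notes; the MAS5 version and settings are not given in the sources used here. The table's 2% trimmed means were 1500.54 to 1500.66 and its array medians 362 to 471, so arrays had been scaled to a common mean. No depth applies; the number of arrays limits the precision.

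The table holds 31099 probe sets, 57 of them controls; a single symbol was given for 20826, more than 1 for 436 and none for 9780, and symbols were updated through gene identifiers. A probe set passed the filter if 5 or more arrays had it above their median, and the brightest stood for its gene. Signals were log2 transformed without a pseudocount. Group means were estimated over the 30 arrays together with limma 3.58.1 in R 4.3.3 (24 residual degrees of freedom, eBayes with a trend, two-sided, Benjamini-Hochberg over the 10222 genes of each comparison), with calls at an adjusted p under 0.05. The pipeline was tested on simulated data. Comparisons at a time share their DMSO or 3 uM arrays, and the changes with time share all of theirs.

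The members, gene lists and alternatives were chosen with earlier results of these data known, including that 3 arrays of 3 uM at 24 h stand apart. Named are up to 10 called members each way at 100 uM against DMSO, 5 for the other doses, 8 for time and 6 for changes with time (or, where none passed, the 3 of smallest p), Rps27l, Rpl22, Rpl3, Rpl7l1, Rpl7, Rpl39, Rplp0, Rpsa, Rpl5, Rpl11, Rps6 and Rpl13a, and up to 3 called genes each way of each list. Others were named after their values were seen. Values after ± in the text are SE unless stated. No label links wells between groups, and the fit held no pairing. Replicates are numbered in order of deposit, which is also the order of the array numbers in the titles. Each run of 6 consecutive arrays holds every group once. These runs entered as a block in an alternative fit. Plots were made in Python 3.11.15 (matplotlib 3.10.9).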

Additional observations from a re-analysis of the deposited data

Results flagged for a closer look

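Of 90 sets of 5 arrays (named genes by group and the array measures), 3 had a lowest array whose gap to the next exceeded 0.71 of the range of the set; chance gives about 1 in 20. Rpl37-ps2 in DMSO at 24 h had a signal of 169 in replicate 2 and 273 to 311 in the other 4 arrays, a gap of 0.737 of the range. Rpl7l1 in DMSO at 24 h had 5375 in replicate 2 and 5941 to 6154 in the others, a gap of 0.727. Rps28 in DMSO at 48 h had 34300 in replicate 4 and 36422 to 37139 in the others, a gap of 0.747.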

How the results depend on the processing

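The call counts of the ribosomal protein genes depended on the scaling between arrays, while the direction of the members called at 100 uM against DMSO held in every alternative run. Under quantile normalization higher members at 100 uM against DMSO were 20 at 24 h and 34 at 48 h, where 20.9% and 19.8% of all genes were higher. At 48 h 1 member was lower, beside 1589 of all 10222 genes. Those higher at 100 uM against 3 uM and 48 h were 28, where 17.2% of all genes were. In that comparison 2 were lower, beside 1402 of all genes. With time in DMSO 2 members were lower, beside 217 of all genes. In the change of the 100 uM effect 2 were higher, where 0.753% of all genes were. With arrays centred on their median the counts were 1 and 4 against DMSO (14.2% and 12.2% of all genes), and 6 and 3 against 3 uM at 24 and 48 h (11.5% and 11.2%). That centring also lowered the share of higher genes among all calls from 56.6% to 44.7% at 100 uM and 48 h and from 50.9% to 34.5% for 100 uM against 3 uM at 24 h, and raised it from 71.0% to 90.7% at 3 uM and 24 h. Fitting only the groups compared gave 19 higher and 1 lower at 100 uM and 48 h, and 9 and 8 higher against 3 uM at 24 and 48 h. Array weights gave 37 lower at 3 uM and 24 h, 31 higher in the change of the 3 uM effect, and 8 higher and 2 lower at 100 uM against 3 uM and 48 h. The beta-actin ratio as a covariate left 4 higher at 100 uM against 3 uM and 24 h. With replicates 4 and 5 alone for 3 uM at 24 h, 11 members were higher at 100 uM and 24 h, and 2 and 8 against 3 uM at 24 and 48 h. Of all genes 21.7%, 14.6% and 18.2% were higher in these comparisons. The medians were then 0.12 (3 uM, 24 h), -0.014 (100 uM against 3 uM, 24 h) and -0.066 (change of the 3 uM effect). The arrays left out had been set apart partly by the members' own level, so the direction of these shifts was fixed. In that setting, for 100 uM against 3 uM at 24 h, Rpl22 was at -0.0076, Rpl7 at -0.035, Rpl5 at -0.021 and Rpl11 at -0.034. For the same comparison the mean of all probe sets put Rpl7l1 at -0.028. At an adjusted p under 0.01 the counts were 2 and 5 against DMSO, and 15 and 1 against 3 uM, which a stricter threshold must lower. The cause of the other shifts was not tested. Shares over all genes were counted for the 2 scalings and for replicates 4 and 5 alone. For the other alternatives, single arrays left out among them, they were not counted.

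Leaving out single arrays gave 4 to 9 higher and 0 to 1 lower members at 100 uM and 24 h, 18 to 41 higher against 3 uM at 24 h, 3 to 7 at 48 h, 0 to 20 lower at 3 uM and 24 h, and 0 to 1 higher in the change of the 3 uM effect. Filters, the pseudocount of 16, probe set choice, the variance model and array runs of 6 as a block kept every member count within 1.5 times.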
